A study of Mus musculus with 11 samples.

Results

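Intraflagellar transport and BBSome genes were followed in hippocampal RNA of 14-month-old mice. The set was selected by gene name and read count: every protein-coding row of the deposited gene table named Ift or Bbs followed by a number, with at least 20 counts summed over the 11 libraries. It held 22 genes, 14 Ift and 8 Bbs, of 36826 genes in the table. The summed counts that chose them ran from 3316 for Bbs10 to 61408 for Ift172, so the minimum left out no protein-coding Ift or Bbs gene. All 22 were among the 14428 genes tested, which reached an FPKM of 1 (the deposited level scaled for depth and transcript length) in 3 or more libraries.

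The libraries fall into 3 groups. The RMF group (4 libraries) came from APP/PS1 mice, which carry transgenes for familial Alzheimer's disease, exposed to a rotating magnetic field of 0.4 T. The Sham group (3 libraries, numbered 1, 3 and 4) came from APP/PS1 mice given sham exposure. The WT group (4 libraries) came from C57BL/6J mice of the same age without the transgenes. Exposure or sham exposure ran on 5 working days a week from 2 months of age, for 3 h a day up to 11 months and for 6 h a day from then on. The labels speak of pooled RNA and do not tie each library to 1 animal, and the p-values given here rest on the variation among libraries, part of which may be technical. They also do not say whether WT mice were placed in the sham apparatus. They give the cell type as neurons, but summed markers of oligodendrocytes stood at 2528 CPM or more in every library and those of microglia at 301 CPM or more (CPM, counts scaled to library size). In bulk RNA, fewer cells of a type and less RNA per cell cannot be told apart.

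A primary cilium is a single antenna-like projection carried by most neurons and astrocytes of the hippocampus, on which receptors for somatostatin, serotonin and hedgehog signals gather. Intraflagellar transport (IFT) builds and serves it: trains of IFT-B and IFT-A complexes are pulled to the tip by kinesin-2 and back by dynein-2. The BBSome is a coat-like complex, named after Bardet-Biedl syndrome, that rides on these trains and carries membrane receptors out of the cilium. Factors of the RFX family bind an X-box motif in the promoters of many of these genes.

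Because the X-box is the feature known to be shared by ciliary promoters, the promoter windows of the genes were searched for its half-site GTTGCC on both strands. RefSeq (GRCm38.p6) held a window of 300 bases, from 250 before to 50 after the start, for 19 of the 22 genes. A match lay in 8 of the 19 windows (42.1%), against 4111 of all 32851 promoter windows of that RefSeq set (12.5%). The 32851 windows were not limited to genes tested here and were not chosen to be alike in base composition. The 8 genes were Ift27, Ift57, Ift88, Ift140, Ift172, Bbs1, Bbs5 and Bbs7, and Ift57 held 2 matches. The windows of the 3 genes with non-overlapping RMF and Sham libraries are shown 5′ to 3′ on the gene's strand, with the half-site in capitals. In GRCm38.p6 the Ift27 window lies at chr15:78174032-78174331 on the minus strand, that of Ift172 at chr5:31291065-31291364 on the minus strand and that of Ift20 at chr11:78536111-78536410 on the plus strand. The deposited table placed 0 of the 22 genes within 10 kb of their GRCm38 positions. Its coordinates, given below for Ift27, therefore cannot be compared with these.
Ift27: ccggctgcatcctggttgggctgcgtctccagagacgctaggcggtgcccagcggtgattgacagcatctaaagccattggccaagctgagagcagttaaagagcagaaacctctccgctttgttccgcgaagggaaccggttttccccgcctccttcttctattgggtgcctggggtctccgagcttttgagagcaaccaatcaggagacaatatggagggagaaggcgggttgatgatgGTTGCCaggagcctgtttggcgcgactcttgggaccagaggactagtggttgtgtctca
Ift172: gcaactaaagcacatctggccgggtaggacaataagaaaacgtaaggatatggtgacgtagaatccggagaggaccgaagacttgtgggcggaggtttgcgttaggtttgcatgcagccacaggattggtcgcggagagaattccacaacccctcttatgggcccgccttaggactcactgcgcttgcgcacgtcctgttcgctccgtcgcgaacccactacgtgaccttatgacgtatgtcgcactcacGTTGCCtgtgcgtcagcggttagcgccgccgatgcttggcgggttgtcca
Ift20: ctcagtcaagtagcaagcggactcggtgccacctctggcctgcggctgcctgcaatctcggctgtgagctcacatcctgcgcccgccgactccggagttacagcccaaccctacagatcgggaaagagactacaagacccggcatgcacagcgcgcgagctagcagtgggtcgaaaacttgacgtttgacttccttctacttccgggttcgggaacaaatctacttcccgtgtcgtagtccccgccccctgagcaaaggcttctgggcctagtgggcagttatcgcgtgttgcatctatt
In Ift27 the match began at position -9 relative to the start, and in Ift172 at position 0, the start itself. The letters do not occur in the Ift20 window. A match describes the sequence and shows no bound factor.

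Levels between genes are compared per length, as FPKM averaged over the 11 libraries. Ift20 stood highest at 14.5 FPKM, followed by Ift57 at 13.4, Ift172 at 11.7 and Ift22 at 10.7. Ift20 is an IFT-B subunit that also sits at the Golgi, and Ift172 is a large IFT-B subunit. At the other end, Bbs10 averaged 1.37 FPKM, Bbs12 1.93, Bbs9 2.05, Ift43 2.61 and Ift27 2.64. Bbs10 and Bbs12 encode chaperonin-like proteins that help to assemble the BBSome, and Bbs9, a subunit of the coat, lay within the library spread of Bbs12. Neighbours in this order, such as Ift43 and Ift27, often lay within the spread of their libraries: Ift43 averaged 2.58 ± 0.546 FPKM in RMF, 2.38 ± 0.366 in Sham and 2.82 ± 0.691 in WT (SD), and Ift27 averaged 2.71 ± 0.135 FPKM in RMF, 1.81 ± 0.266 in Sham and 3.19 ± 0.643 in WT (SD).

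**Figure D1:**
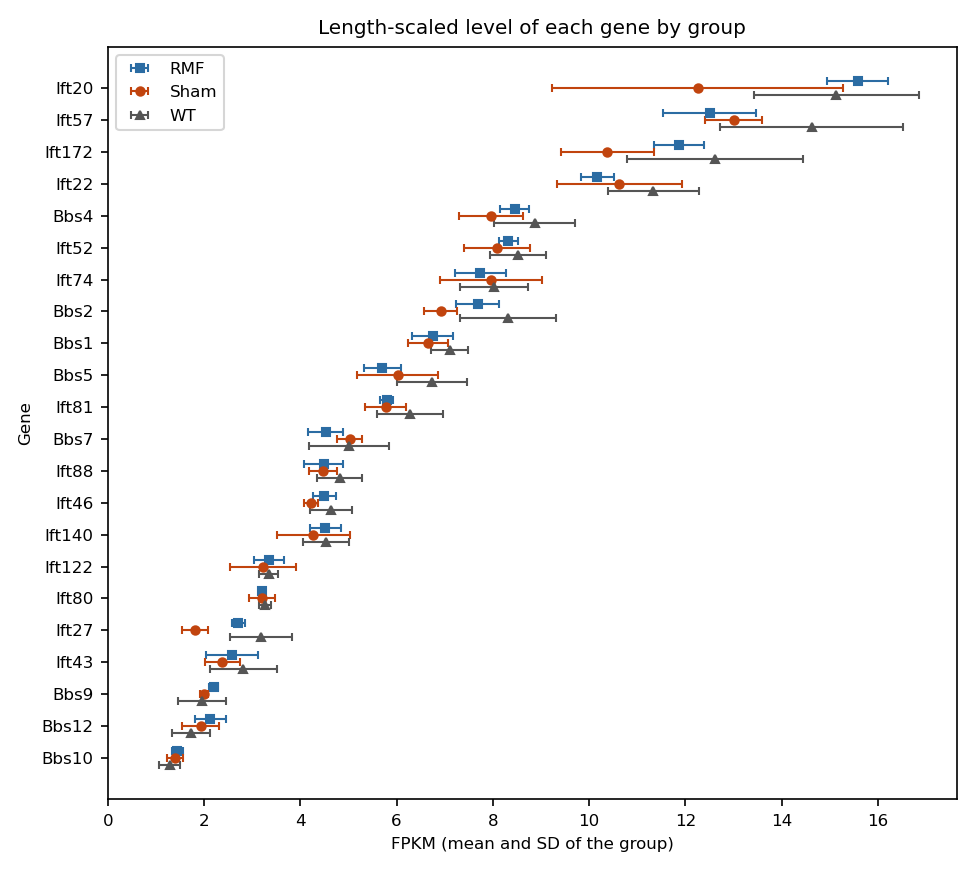
Mean deposited FPKM with SD for each of the 22 genes in RMF (4 libraries), Sham (3) and WT (4), ordered by the mean over all libraries. Ift20 at 14.5 FPKM and Bbs10 at 1.37 FPKM mark the ends, and the Sham mean of Ift27, 1.81 FPKM, lies apart from its RMF and WT means of 2.71 and 3.19.

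Library totals lay between 68124548 and 70786786 counts, so depth hardly differed. A pair of libraries stood apart. WT 3 correlated with its group at a median of 0.961 while the remaining 10 libraries reached 0.981 to 0.992, and its neocortex markers summed to 1108 CPM, against 419 to 502 CPM in the other WT libraries. It was the highest or lowest WT library for 19 of the 22 genes (74.6% of all tested genes), and the median of the 22 genes lay 0.21 log2 units above their means there, against -0.05 to 0.05 in the other libraries. Sham 4 had 9.53% mitochondrial counts and was the highest or lowest Sham library for 20 of the 22 genes (80.4% of all tested genes). Its neocortex markers summed to 683 CPM, against 408 CPM in Sham 1 and 388 CPM in Sham 3. The effect of WT 3 and Sham 4 on a difference is given beside it where it is large.

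Sham was compared with WT for the APP/PS1 genotype, from which sham exposure cannot be told apart, since it is recorded for Sham only. One gene of the set, Ift27, passed the test: it fell to 0.584-fold in Sham. That is 1 of 22 genes, against 0.929% of all tested genes past an adjusted p of 0.05 by edgeR's quasi-likelihood test with Benjamini-Hochberg adjustment. The set and the gene lists below were chosen with earlier results of these data known, so such shares are descriptions and no test. At an unadjusted p below 0.05 there were 3 of 22, against 13.2% of all genes, and the groups did not overlap for the same 3 of 22, against 12.7%. Those shares are close to the background. The log2 difference was below 0 for 16 of 22 genes, against 50.3% of all genes, with a median of -0.05 against 0.00 (-0.00188) over all genes. Without WT 3 it was below 0 for 15 genes, without WT 1 for 13, and over all single libraries left out for 13 to 19.

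RMF was compared with Sham for the field itself, since both groups are APP/PS1. None of the 22 genes passed, against 0% of all tested genes by edgeR's quasi-likelihood test, since no gene passed at all. Unadjusted p was below 0.05 for 2 of 22 genes, against 6.89%, and groups did not overlap for 3 of 22, against 10.6%. Differences were above 0 for 12 of 22, against 49.5%, with a median of 0.01. By DESeq2, 16 genes of the whole table passed and none was a member of the set.

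The first and second comparisons share the 3 Sham libraries with opposite sign, so low Sham values give a fall and a rise together. RMF against WT shares its WT libraries with the first comparison and its RMF libraries with the second, so the 3 are not independent. Again 0 of 22 genes passed, against 1.19% of all genes by edgeR's quasi-likelihood test, and DESeq2 also called none. Unadjusted p was below 0.05 for 2 of 22 genes, against 8.4%, and groups did not overlap for 1 of 22, against 6.75%. Differences were below 0 for 17 of 22 genes, against 50.2%, with a median of -0.07. For the mean of both APP/PS1 groups against WT, 0 of 22 genes passed, against 1.43%, 1 of 22 had an unadjusted p below 0.05, against 12%, and 0 of 22 did not overlap, against 3.2%. There, 19 of 22 differences were below 0, against 51% of all genes, and 13 without WT 1. DESeq2 called 1 gene of the set in that contrast, Ift27.

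**Figure D2:**
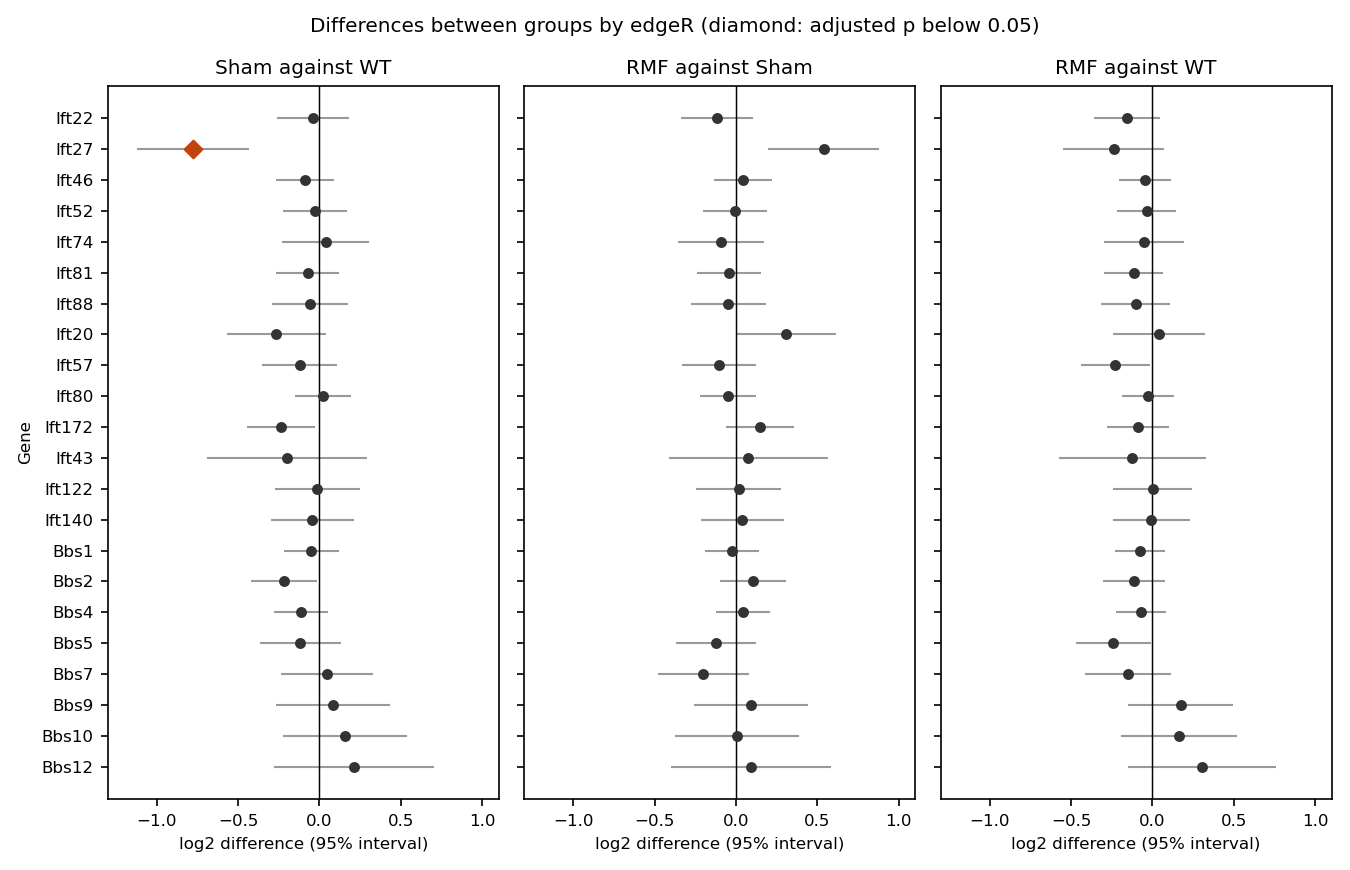
log2 difference with its 95% interval for each gene in Sham against WT, RMF against Sham and RMF against WT, by edgeR. The diamond marks Ift27 in Sham against WT at -0.78, the only difference past an adjusted p of 0.05, and most other intervals include 0.

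The IFT-B1 core, the backbone of the anterograde train, held 7 of the genes, and the one that passed was among them. Ift27 (ENSMUSG00000016637, chromosome 15, 78043663 to 78058307 on the minus strand in the deposited table) encodes a Rab-like small GTPase that pairs with Ift25 and, in mouse cells, serves the exit of the BBSome from the cilium. Its level was 7.94, 8.66, 7.84 and 7.72 CPM in RMF libraries 1 to 4, against 6.22, 5.41 and 4.97 CPM in Sham libraries 1, 3 and 4. In WT libraries 1 to 4 it was 8.99, 8.26, 12.1 and 8.55 CPM. All 3 Sham libraries thus lay below every RMF and every WT library, while RMF and WT overlapped and WT 3 was the highest. Behind these levels stood 540 to 600 counts in RMF, 316 to 430 in Sham and 569 to 849 in WT.

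For Ift27 the log2 difference of Sham against WT was -0.78 (SE 0.156, 95% interval -1.12 to -0.43, adjusted p = 0.0437 by edgeR's quasi-likelihood test with Benjamini-Hochberg adjustment). The call was close to the threshold: with any 1 library left out the difference lay between -0.87 and -0.64, and adjusted p was above 0.05 for 10 of the 11 libraries, up to 0.181 without Sham 4. Without WT 3 it held (-0.64, adjusted p = 0.0448), and without both WT 3 and Sham 4 the difference was -0.56 with an adjusted p of 0.116. By DESeq2, adjusted p was 0.000395. RMF against Sham gave 0.54 (SE 0.155, interval 0.20 to 0.88, unadjusted p = 0.00506, adjusted p = 0.719 by edgeR's test), a mean of 8.04 ± 0.426 CPM in RMF against 5.53 ± 0.633 CPM in Sham (SD), which did not pass. RMF against WT gave -0.24 (interval -0.55 to 0.07, adjusted p = 0.706), where WT averaged 9.47 ± 1.77 CPM (SD), and -0.10 without WT 3. The mean of both APP/PS1 groups against WT gave -0.51 (adjusted p = 0.0959, and 0.0104 by DESeq2).

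None of the other 6 IFT-B1 genes had an unadjusted p below 0.05 in any comparison. Ift22, a second Rab-like GTPase of the train, was the one whose RMF and WT libraries did not overlap: 37.5, 39.2, 36.6 and 38.4 CPM in RMF, against 40.7, 39.9, 46.5 and 42.02 CPM in WT. Its RMF libraries sat in a narrow band just below the lowest WT library, with a log2 difference of -0.16 (interval -0.36 to 0.05, unadjusted p = 0.123), and -0.11 without WT 3. Its Sham libraries, at 34.7, 41.2 and 47.3 CPM, spanned both groups. Ift74 and Ift81, which bind tubulin together, averaged 21.3 ± 1.49 and 35.0 ± 0.731 CPM in RMF, 22.6 ± 3.65 and 36.1 ± 2.86 CPM in Sham, and 22.1 ± 2.10 and 37.9 ± 3.75 CPM in WT (SD). Ift46, Ift52 and Ift88, structural subunits of the core, differed by -0.10 to 0.04 on the log2 scale across the 3 pairwise comparisons, and their groups overlapped throughout.

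The 4 IFT-B2 genes, outer subunits of the same train, include the 3 of highest FPKM in the set. Ift172 measured 78.3, 79.7, 81.9 and 84.9 CPM in RMF, against 75.4, 76.2 and 68.1 CPM in Sham. In WT it measured 82.9, 81.0, 103 and 78.2 CPM. As for Ift27, every Sham library lay below every RMF and every WT library, although the gap was small and WT 3 stood far above the rest. Sham against WT gave -0.24 (SE 0.095, unadjusted p = 0.0295, adjusted p = 0.326 by edgeR's test), -0.14 without WT 3 and -0.09 without both WT 3 and Sham 4. RMF against Sham gave 0.15 (interval -0.06 to 0.36, unadjusted p = 0.144) and 0.10 without Sham 4, and RMF against WT gave -0.09 with overlapping groups. None of these passed.

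Ift20 measured 26.1, 24.5, 24.5 and 23.3 CPM in RMF, against 23.1, 21.6 and 14.99 CPM in Sham. In WT it measured 21.8, 23.2, 27.4 and 23.1 CPM. RMF and Sham did not overlap, but Sham 4 alone was far down and Sham 1 lay just under RMF 4. The log2 difference of RMF against Sham was 0.31 (SE 0.139, unadjusted p = 0.0495, adjusted p = 0.722 by edgeR's test) and 0.14 without Sham 4. Sham against WT gave -0.27 (interval -0.57 to 0.04), -0.10 without Sham 4 and -0.02 without both WT 3 and Sham 4.

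Ift57, which also binds a huntingtin-interacting protein, measured 35.8, 33.8, 40.1 and 38.3 CPM in RMF, against 36.2, 44.5, 49.3 and 43.1 CPM in WT. The low WT 1 library fell inside the RMF range, so the groups overlapped. RMF against WT gave -0.23 (SE 0.0971, unadjusted p = 0.0389, adjusted p = 0.559 by edgeR's test). Without WT 3 it gave -0.16 with an unadjusted p of 0.107. Its Sham libraries, at 39.9, 37.2 and 42.2 CPM, overlapped both. Ift80, the fourth subunit, stayed within 0.05 log2 units in each pairwise comparison, with a mean of 41.2 ± 1.02 CPM in RMF, 42.6 ± 4.52 in Sham and 41.96 ± 1.64 in WT (SD).

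**Figure D3:**
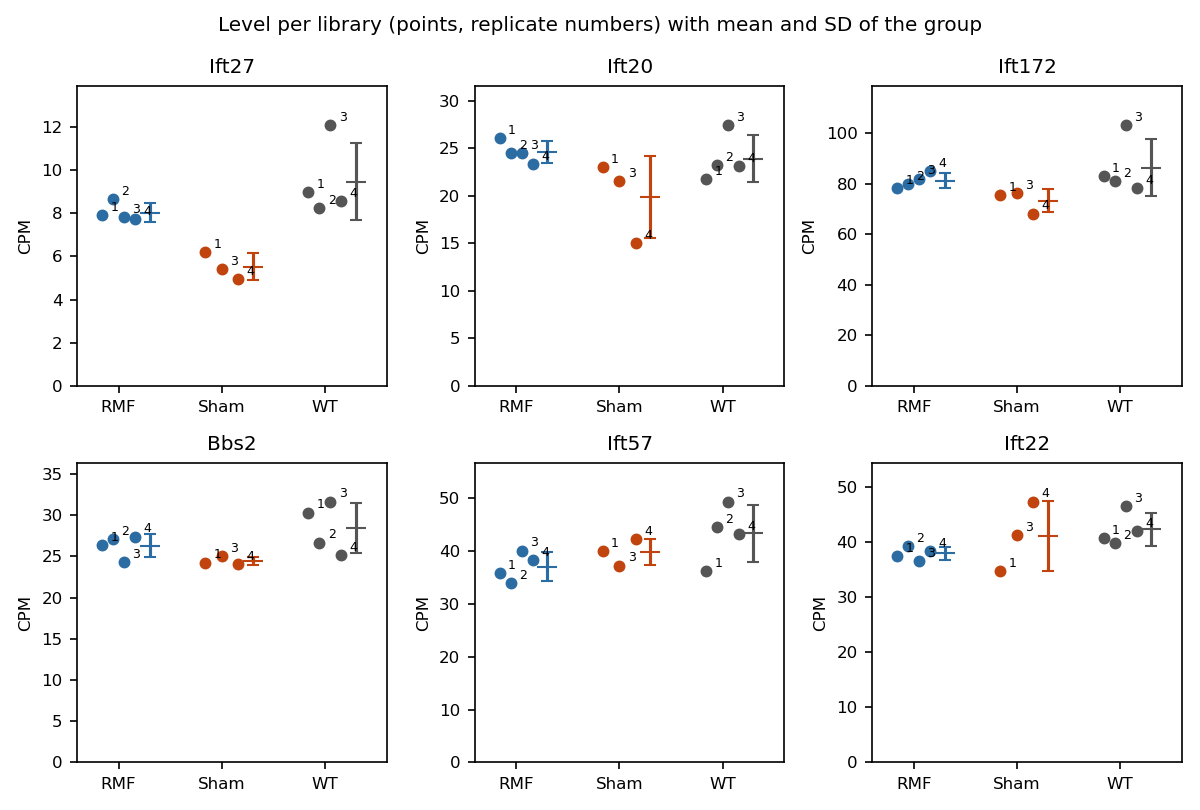
CPM per library for Ift27, Ift20, Ift172, Bbs2, Ift57 and Ift22, with points numbered by replicate and the mean and SD of each group beside them. The Sham points of Ift27 (4.97 to 6.22 CPM) lie under all RMF points (7.72 to 8.66) and all WT points (8.26 to 12.1), and the Sham mean of Ift20 is pulled down by replicate 4 at 14.99 CPM.

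IFT-A, the complex of the returning train, was represented by Ift43, Ift122 and Ift140, and gave no unadjusted p below 0.05. Ift122 averaged 35.8 ± 3.14 CPM in RMF, 35.4 ± 6.43 in Sham and 35.7 ± 2.03 in WT (SD). Ift140 averaged 38.9 ± 2.61 CPM in RMF, 37.9 ± 5.70 in Sham and 39.1 ± 4.11 in WT (SD). For both genes the 95% intervals of the 3 pairwise log2 differences stayed within -0.30 to 0.29. Ift43, a small subunit, was measured less tightly, with -0.20 for Sham against WT (interval -0.69 to 0.29), -0.09 without WT 3 and 0.01 without both WT 3 and Sham 4. All 3 IFT-A genes were lowest in Sham 4 within the Sham group, at 3.60 CPM for Ift43, 28.8 for Ift122 and 31.8 for Ift140.

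Among the 6 BBSome subunits, Bbs2 and Bbs5 came nearest to a difference with all libraries included. Bbs2, which forms the core of the coat with Bbs7 and Bbs9, measured 26.4, 27.1, 24.3 and 27.4 CPM in RMF, against 24.3, 25.0 and 24.0 CPM in Sham. In WT it measured 30.3, 26.7, 31.7 and 25.1 CPM. All Sham libraries lay below all WT libraries, but WT 4 exceeded the highest Sham library by less than the spread within WT, and RMF overlapped both groups. Sham against WT gave -0.22 (SE 0.0928, unadjusted p = 0.0379, adjusted p = 0.345 by edgeR's test). Without WT 3 it gave -0.16 with an unadjusted p of 0.0892, and without Sham 4 -0.21 with an unadjusted p of 0.0823.

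Bbs5, a subunit that binds membrane lipids, measured 14.2, 14.4, 13.6 and 15.6 CPM in RMF, against 15.5, 18.5, 18.7 and 15.5 CPM in WT. RMF 4 reached into the WT range, so the groups overlapped by 1 library. RMF against WT gave -0.24 (SE 0.105, unadjusted p = 0.0416, adjusted p = 0.571 by edgeR's test), and -0.19 without WT 3 (unadjusted p = 0.103). Sham libraries, at 17.6, 15.3 and 14.3 CPM, spanned both.

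Bbs7 measured 25.6, 28.1, 23.6 and 23.7 CPM in RMF, against 27.7, 27.4 and 31.8 CPM in Sham. RMF 2 lay inside the Sham range, and the log2 difference of -0.20 (interval -0.48 to 0.08) did not pass and was -0.13 without Sham 4. Bbs4, a subunit also found at centriolar satellites, gave -0.11 for Sham against WT (interval -0.28 to 0.05), and WT 3 at 62.0 CPM was its highest library. Its difference was -0.05 without WT 3 and -0.02 without both WT 3 and Sham 4. Bbs1, the subunit that contacts the small GTPase Arl6, differed by at most 0.08 log2 units in size between groups, at 53.6 ± 2.96 CPM in RMF, 54.5 ± 3.51 in Sham and 56.4 ± 3.28 in WT (SD). Bbs9 averaged 14.2 ± 0.614 CPM in RMF, 13.4 ± 0.916 in Sham and 12.6 ± 3.04 in WT (SD), and the WT spread covered both APP/PS1 groups. WT 3, at 17.0 CPM, was the highest of all libraries: RMF against WT gave 0.17 with it and 0.35 without it (unadjusted p = 0.00606, adjusted p = 0.207 by edgeR's test).

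The chaperonin-like genes and the BBSome subunit Bbs9 had mean levels above WT in both APP/PS1 groups, unlike most of the set, but none passed. Bbs12 measured 6.35, 4.30, 5.53 and 5.30 CPM in RMF, against 4.67, 3.76, 3.35 and 5.63 CPM in WT. The ranges overlapped, and RMF against WT gave 0.30 (interval -0.15 to 0.76, unadjusted p = 0.171), 0.20 without WT 3 and 0.45 without WT 4. Its Sham libraries measured 4.61, 4.14 and 6.39 CPM. Bbs10 averaged 4.56 ± 0.323 CPM in RMF, 4.55 ± 0.649 in Sham and 4.07 ± 0.710 in WT (SD). WT 3 was the lowest WT library for both, at 3.23 CPM for Bbs10 and 3.35 for Bbs12. Without both WT 3 and Sham 4, Sham against WT gave -0.02 for Bbs10, against 0.16 with them, and -0.10 for Bbs12, against 0.21 with them.

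**Figure D4:**
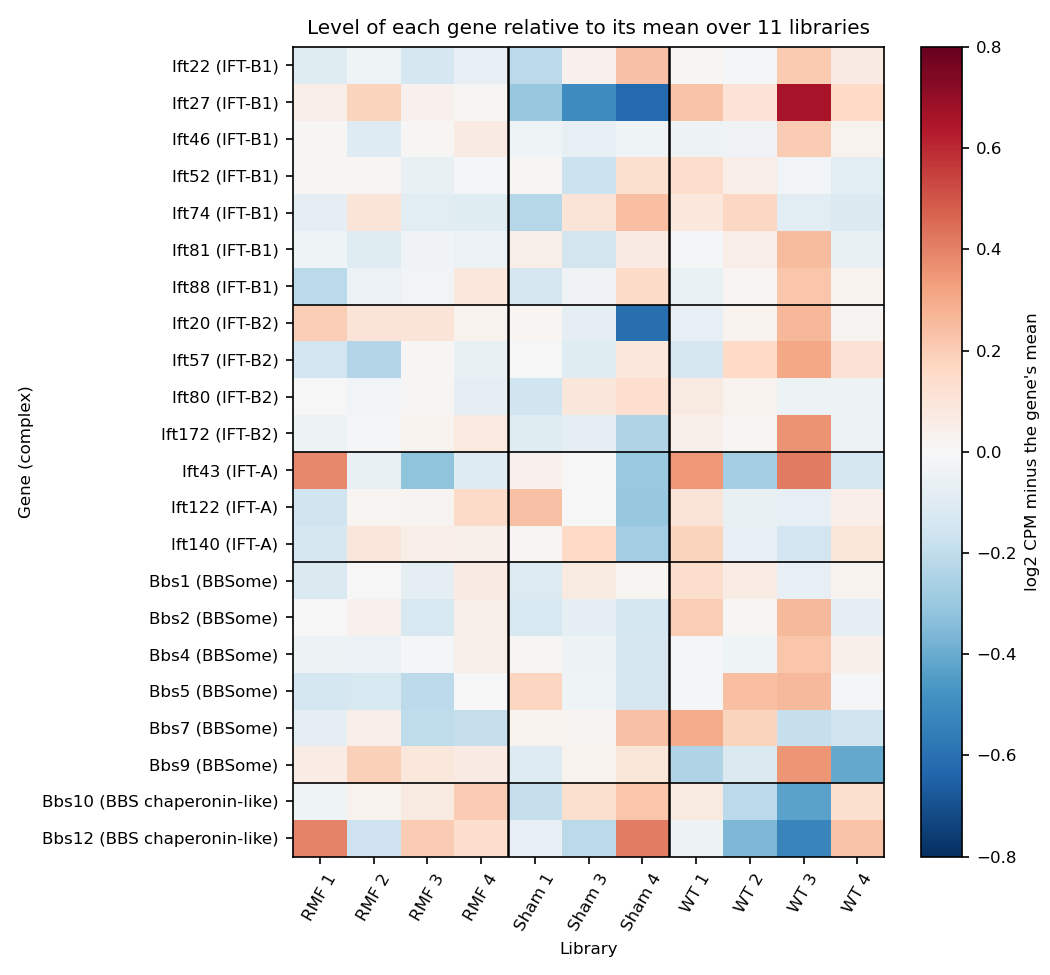
log2 CPM of each gene minus its mean over the 11 libraries, with genes in rows grouped by complex and libraries in columns grouped as RMF, Sham and WT. Ift27 is below its mean in all 3 Sham libraries, and WT 3 is above the mean for most genes (median 0.21). Sham 4 holds the lowest values of Ift20, Ift122 and Ift140, and for Ift43 it is lowest only within Sham.

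Partners of the set that carry other names did not pass either. Hspb11 is Ift25, the partner that holds Ift27 in the train, and measured 3.22, 3.18, 2.29 and 2.84 CPM in RMF, 3.21, 3.59 and 3.35 CPM in Sham and 3.16, 3.54, 2.96 and 3.64 CPM in WT. Its Sham and WT libraries overlapped, with a log2 difference of 0.03 (interval -0.34 to 0.39), so a change of the size seen for Ift27 (-0.78) lay outside its interval. Arl6, the GTPase that places the BBSome on membranes, gave -0.17 (interval -0.42 to 0.08) for Sham against WT and -0.09 without WT 3. Lztfl1, a partner of the BBSome in its exit from cilia, gave 0.14 (interval -0.07 to 0.35) and 0.04 without Sham 4.

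Across 8 lists of ciliary genes beyond the set (other IFT-B, IFT-A and BBSome genes, motors, transition zone, ciliary receptors, the hedgehog pathway and ciliogenesis factors), 76 of 94 genes were tested. None passed in any comparison by edgeR's quasi-likelihood test, and unadjusted p was below 0.05 for 10 of 76 in Sham against WT (13.2% of all tested genes), 5 in RMF against Sham (6.89%) and 5 in RMF against WT (8.4%). Those counts are near the background, and single genes are given as values. The lowest p in Sham against WT belonged to Dync2i2, a dynein-2 intermediate chain of the returning motor. It measured 19.0, 19.3, 20.04 and 21.2 CPM in RMF, against 17.7, 15.9 and 14.3 CPM in Sham and 20.4, 19.95, 28.1 and 20.8 CPM in WT. Every Sham library lay below every RMF and WT library, with a log2 difference of -0.48 for Sham against WT (unadjusted p = 0.00341, adjusted p = 0.165) and 0.31 for RMF against Sham (unadjusted p = 0.0331, adjusted p = 0.719). Without both WT 3 and Sham 4 these were -0.28 and 0.24.

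Other genes of these lists gave values on either side of 0. Dynlt2b, a light chain of the same motor, gave -0.39 for Sham against WT (unadjusted p = 0.0094), and Dynlrb1, a light chain that it shares with cytoplasmic dynein, gave -0.29 for RMF against WT (adjusted p = 0.0688). In the transition zone, the gate at the base of the cilium, B9d1 gave -0.31 for Sham against WT and Rpgrip1l gave 0.24, with unadjusted p of 0.0215 and 0.0154. Arl3, a GTPase that releases lipid-modified cargo inside cilia, gave -0.37 (unadjusted p = 0.00992) and -0.23 without Sham 4. Among ciliogenesis factors, Rfx4 gave 0.54 for Sham against WT (unadjusted p = 0.0145, and 0.26 without both WT 3 and Sham 4) and Rfx1 gave -0.30 for RMF against WT (unadjusted p = 0.00969). Subunits under other names gave small values for Sham against WT, with -0.12 for Cluap1 and -0.06 for Ttc30a1 of IFT-B, and 0.10 for Wdr35 and 0.15 for Ttc21b of IFT-A (0.03 for Wdr35 without WT 3 and -0.02 for Ttc21b without Sham 4). In the same contrast Pkd1 gave -0.21 and Hhip 0.66, neither past the threshold, and -0.11 and 0.12 without both WT 3 and Sham 4. Trim32 and the hedgehog co-receptor Gas1 gave 0.19 and -0.46 for RMF against Sham, with unadjusted p of 0.0242 and 0.0324, and of 0.104 and 0.0555 without Sham 4.

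Marker levels of other cell types, among them those that bear many cilia, were summed per library. The ependymal and motile cilia list (20 of 22 genes in the table, 0 at 0 counts) summed to 110 to 147 CPM in RMF, 114 to 144 in Sham and 81.0 to 152 in WT, so the groups overlapped, and 0 of its 8 tested genes passed. Choroid plexus markers summed to 54.9 to 158 CPM in RMF, 69.1 to 75.5 in Sham and 24.3 to 261 in WT. Markers of airway and other epithelium summed to 19.7 to 28.5 CPM in RMF and 24.8 to 35.8 in Sham, against 0.259 to 0.857 in WT. All 5 tested genes of that list (Scgb1a1, Sftpc, Lypd8, Agr2 and Krt19) passed as higher in both comparisons with WT. Of all tested genes, 0.929% passed in Sham against WT and 1.19% in RMF against WT. The list summed to 0.857 CPM or less in WT, so these genes met the FPKM filter through the APP/PS1 libraries. Passing as higher was thus largely set by the filter. The median log2 difference of the 5 genes was 10.1 in Sham against WT and 9.56 in RMF against WT. The origin of this difference between the WT and APP/PS1 libraries was not tested. Microglia markers summed to 497 to 601 CPM in RMF and 447 to 579 in Sham, against 301 to 376 in WT, and astrocyte markers to 4043 to 4313 in RMF and 4015 to 4489 in Sham, against 2835 to 3564 in WT. Of 9 microglia markers, 1 passed in Sham against WT (C1qa, log2 difference 0.84), against 0.929% of all tested genes. In RMF against WT 5 of the 9 passed, against 1.19% of all genes, among them C1qa, C1qb, Csf1r and Cx3cr1 (0.58 to 0.94). Of 9 astrocyte markers, 1 passed in RMF against WT, Gfap (1.64). The median of that list was 0.17, and 2 of its 9 differences were below 0. RMF and Sham overlapped in their sums for each of these 5 lists, but not for general neuron markers, which summed to 7415 to 8213 CPM in RMF, against 8453 to 8852 CPM in Sham and 7964 to 9407 CPM in WT. Of the 11 neuron markers, 0 passed and 5 did not overlap between RMF and Sham, against 10.6% of all tested genes. Dentate granule cell markers overlapped in their sums, at 568 to 695 CPM in RMF and 634 to 725 in Sham. So did CA1, CA2 and CA3 pyramidal markers, at 1067 to 1111 CPM in RMF and 1056 to 1161 in Sham. In WT these sums were 419 to 795 CPM for dentate and 664 to 1222 CPM for pyramidal markers. WT 3 was lowest for both, with the other WT libraries at 633.5 CPM or more and 1042 CPM or more. The part of these lists in the Ift27 differences was not tested.

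Genes beside Ift27 did not pass. The deposited table lists 5 genes within 100 kb, of which 3 were tested. Pvalb, the parvalbumin gene of fast-spiking interneurons, lies 17.0 kb away and measured 19.4, 19.3, 21.7 and 16.6 CPM in RMF, against 14.0, 11.8 and 21.4 CPM in Sham and 16.5, 20.5, 40.1 and 17.6 CPM in WT. It was lowest in Sham 1 and Sham 3 and by far highest in WT 3. Sham against WT gave -0.59 (interval -1.26 to 0.08, adjusted p = 0.417 by edgeR's test), -0.21 without WT 3 and -0.88 without Sham 4. Without both WT 3 and Sham 4 it gave -0.50 (unadjusted p = 0.00563, adjusted p = 0.217 by edgeR's test). RMF against Sham gave 0.29, and 0.58 without both (unadjusted p = 0.00163, adjusted p = 0.204 by edgeR's test). Ift27 gave -0.56 and 0.47 without both. A link between Pvalb and Ift27 was not tested. In Sham against WT, Cacng2, 39.4 kb away, gave -0.02 (interval -0.30 to 0.26), and A730060N03Rik, 15.3 kb away, gave 0.22 (interval -0.51 to 0.94). Gm49694, 0.354 kb from Ift27, held at most 10 counts in a library, and Ncf4, 70.7 kb away, was also below the level tested.

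Some levels of the set are less certain than their errors. Of the 22 genes, 9 overlap another gene in the deposited table, and the sources used here do not say whether the counting used strand. Ift140 overlaps Tmem204, Ift74 overlaps Lrrc19, Ift57 overlaps Gm15518 and Ift88 overlaps Ift88os, each on the other strand. Ift80 overlaps processed pseudogenes, of which Gm18588 held 2981 counts against 31687 for Ift80. Ift27, Ift172, Ift20, Ift22, Bbs2, Bbs5 and Bbs7 overlap no other gene there. Transcript length went with the Sham against WT difference over all tested genes (Spearman 0.239) and over the 22 (0.196, a description). The values over all genes and over the 22 were -0.210 and -0.056 in RMF against Sham. They were 0.098 and 0.194 in RMF against WT, and 0.205 and 0.307 for the mean of both APP/PS1 groups against WT. With the length trend removed, Ift27 gave -0.72 in Sham against WT (adjusted p = 0.0426).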

How the data were processed

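Hippocampal RNA was sequenced in 11 libraries: 4 RMF, 3 Sham and 4 WT. Per the labels' protocols, libraries were made with oligo(dT) beads and sequenced as paired reads. HISAT2 2.0.4, StringTie 1.3.4d and edgeR are listed in the submitters' processing notes. A human build is listed too, although the gene identifiers are mouse, so the coordinates' build is not given here. Raw whole-number counts of each gene were deposited by the authors, together with FPKM. Their table also held 2 columns of values that match no sample, which were not used.

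The 14428 genes reaching an FPKM of 1 in 3 or more libraries were tested with edgeR 4.0.16 (R 4.3.3), by its quasi-likelihood test with TMM scaling and all 11 libraries in 1 fit of 3 groups. Every adjusted p is Benjamini-Hochberg over all genes tested, with a threshold of 0.05, unless DESeq2 1.42.0 is named. SE values derive from the F statistic. CPM is a gene's count relative to the TMM-scaled library size over tested genes, and a list sum adds the CPM of its members. The procedure was tested on simulated data. Members and gene lists were chosen with earlier results of these data known. Genes were named if they passed, were among the 5 lowest p of the set in a comparison, had the highest or lowest FPKM, had groups that did not overlap or had an outlying library, and from the ciliary lists by lowest p. Partners of Ift27 and the BBSome (Hspb11, Arl6, Lztfl1) were named after their values were seen. Replicates differed by more than sampling noise in every pair (chi-square per degree of freedom 18.6 or more). Alternatives were RLE factors, DESeq2, limma 3.58.1 voom with library weights, other filters, a replicate block, 2-group fits, a length correction and leaving out libraries.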

Additional observations from a re-analysis of the deposited data

Results flagged for a closer look

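Within RMF, library 2 stood apart for Ift74, a tubulin-binding subunit of IFT-B1: it measured 23.5 CPM, while the other 3 RMF libraries lay between 20.4 and 20.7 CPM. The gap to the nearest of the others took 0.880 of the group's range, above Dixon's 95% critical value for 4 samples. This was 1 flag among 44 groups checked, and chance flags about 1 in 20.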

How the results depend on the processing

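Of 20 results on single genes, 0 changed direction under the 20 or 21 alternatives run for each (20 for the mean contrast, where a fit of 2 groups is not defined). Values of other genes without WT 3, Sham 4 or both were added after seeing the data. In Sham against WT, the count of genes of the set past the threshold was 0 in place of 1 with only the 2 groups compared, without WT 3 and Sham 4 together, and with the replicate block, and 0 to 1 with 1 library left out. For the mean of both APP/PS1 groups against WT it was 1 in place of 0 by DESeq2, again Ift27. The cause was not tested. With the replicate block, Ift27 in Sham against WT gave -0.78 with an adjusted p of 0.155. Replicate numbers do not show pairing: same-numbered libraries correlated between -0.337 and 0.272 in their deviations. Over all genes, Sham against WT gave 134 calls, 345 by DESeq2, 252 by voom, 304 unfiltered, 392 with filterByExpr, 363 at an FPKM of 0.1, 87 with the block, 76 from 2 groups and 89 without Sham 3. RMF against Sham gave 0 calls, 16 by DESeq2 and 1 without Sham 1. RMF against WT gave 172 calls, 315 by DESeq2, 308 by voom, 354 unfiltered, 419 with filterByExpr, 378 at an FPKM of 0.1, 112 with the block and 260 without WT 3 and Sham 4. The mean contrast gave 206 calls, 410 by DESeq2, 320 by voom, 413 unfiltered, 497 with filterByExpr, 464 at an FPKM of 0.1 and 126 with the block. By DESeq2 the Sham against WT calls split into 251 higher and 94 lower, against 122 and 12 by edgeR. With 3 or 4 libraries a group, the median SE of a Sham against WT difference was 0.109 log2 units over the 22 genes, so small differences were not detectable.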
